A study of Homo sapiens with 12 samples.

Results

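The unexposed state of RPMI2650 was described from 4 control libraries, out of the 12 RNA-seq libraries of the study. RPMI2650 is an established human epithelial line that was derived from a malignant tumour of the nasal septum and is used as a stand-in for nasal epithelium. The members were chosen by their label alone, as the libraries whose treatment is given as Control. The other 8 libraries, 4 exposed to 1 µM PFBA and 4 to 1 µM PFHxA for 7 days, were not used here. All 3 groups shared the line, its wild-type genotype and culture at an air-liquid interface, in which the upper face of the cell layer is open to air. The label of the controls gives neither a culture day nor a vehicle. The 4 libraries are named control a to d after the columns of the table. Nothing says whether they came from separate cultures, so that an SD over them may be technical, and all of them represent 1 line from 1 tumour.

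The nasal lining is a pseudostratified epithelium. Its basal cells carry the transcription factor TP63 and the keratins KRT5 and KRT14, and they renew the secretory cells that make mucus and the ciliated cells that move it. Keratins form filaments as pairs, and the pair in use marks the kind of epithelium, with KRT8 and KRT18 in simple and KRT5 and KRT14 in basal layers. HOX genes lie in clusters and mark position along the body axis, and the epithelium of the face forms in front of the region where they are normally used.

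Levels are FPKM computed here from the deposited counts: the count of a gene was divided by the length of its non-overlapping exons in kilobases and scaled to the total count of the library. Values are given as mean ± SD over the 4 libraries (n = 4) or as the values in controls a, b, c and d in that order. A gene counts as expressed at a mean of at least 1 FPKM and as near zero under 0.1 FPKM. Total counts ran from 16941599 in control d to 21508681 in control a. Of 50111 genes with a known length, 12618 were expressed (25.2%), and of 19678 nuclear protein-coding genes 10892 were (55.4%, with a median of 1.81 FPKM over all of them). On the scale of TPM, in which the levels of a library are rescaled to a fixed sum, 15321 genes reached 1. Between pairs of libraries the log2 CPM correlated at r = 0.988 to 0.991 across genes, which are not independent replicates. No pair agreed within sampling noise (chi-square per degree of freedom 10.7 to 21.4). This value was 16.6 to 21.4 in the pairs with control d and 10.7 to 12.8 in the others. The biological coefficient of variation was 0.123. Genes of the mitochondrial genome took 11.9%, 11.6%, 10.97% and 9.15% of the counts, and control d was the lowest. A gene with several isoforms has no single length, and with the longest transcript in place of all its exons 13112 genes were expressed.

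Among the 41 gene lists used here, 541 of 1141 genes were expressed (47.4%). The share was above 90% in the lists of proliferation, growth control, the tricarboxylic acid cycle, amino acids and mitochondrially encoded proteins. It was lowest in the immune, squamous, gland and olfactory, cancer-testis and neural lists, as the plot of list shares shows.

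**Figure D1:**
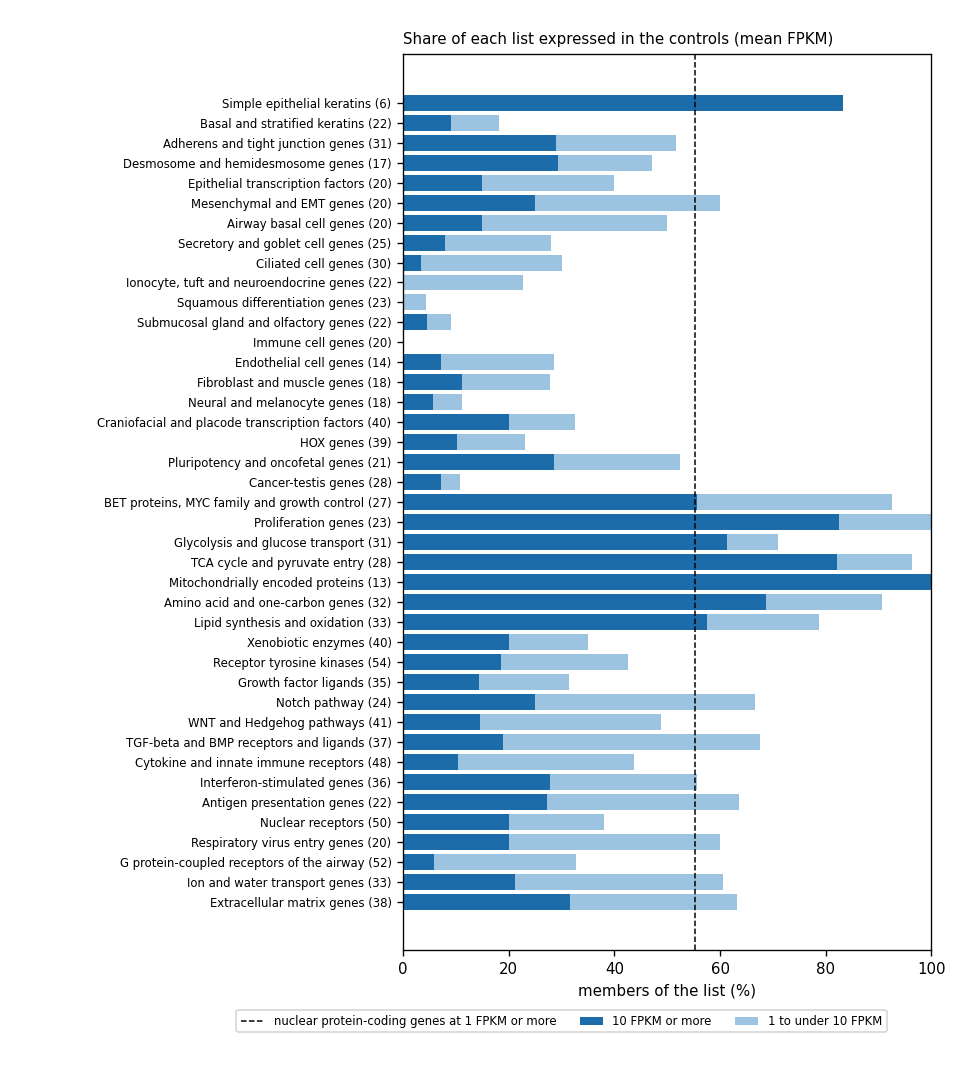
Share of the members of each of 41 gene lists with a mean of at least 1 FPKM in the 4 control libraries (bars, in percent of members), split at 10 FPKM, with the number of members in parentheses. The dashed line marks the 55.4% of nuclear protein-coding genes that were expressed. Proliferation genes and mitochondrially encoded proteins reach 100%, and the immune cell list is at 0.

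The hormone somatostatin was among the most abundant messages. SST, which encodes a peptide that inhibits hormone release and is known from endocrine and nerve cells, was at 765, 744, 801 and 756 FPKM (767 ± 24.7) and was the seventh in order among all nuclear protein-coding genes. Control b was the lowest and control c the highest. Of its 5 receptors, SSTR2 was at 3.71, 3.9, 3.63 and 3.66 FPKM, SSTR5 was listed at 0 counts, and SSTR1, SSTR3 and SSTR4 had means of at most 0.0529 FPKM. SST lies on chromosome 3 (chr3:187668906-187670399, minus strand, GRCh38). The 250 bases before its RefSeq start (GRCh38.p14, chr3:187670395-187670644, minus strand) are shown because they hold the letters TGACGTCA, the cyclic AMP response element, in capitals, whose first base lies 47 bases before the start.

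SST: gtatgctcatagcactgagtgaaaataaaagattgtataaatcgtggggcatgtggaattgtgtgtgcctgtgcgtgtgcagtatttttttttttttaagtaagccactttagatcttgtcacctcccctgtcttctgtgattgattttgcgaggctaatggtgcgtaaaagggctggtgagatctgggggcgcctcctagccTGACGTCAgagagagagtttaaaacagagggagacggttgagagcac

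The same 8 letters, searched on both strands, occurred in the 250 bases before the start of 288 of 11091 protein-coding genes with 1 listed start (2.60%). The match is a description of the sequence and not a measure of its use.

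EEF2, the elongation factor that moves the ribosome along the message, was at 1929.6 ± 103 FPKM and led the nuclear protein-coding genes with transcripts of at least 500 nt. GAPDH, a glycolytic enzyme, was at 1013 ± 60.1, HSP90AB1, a cytosolic chaperone, at 969 ± 36.2, CALR, a chaperone of the endoplasmic reticulum, at 536 ± 24.7, and FTL, the light chain of ferritin, at 475 ± 30.7. TMSB10, an actin-binding peptide whose transcripts are shorter than 500 nt, was at 1688 ± 70.9, second to EEF2 among all nuclear protein-coding genes. RPS12, a protein of the small ribosomal subunit, was at 648, 624, 689 and 1084 FPKM, with control d above the other 3. Levels of translation genes are uncertain, since 4.72% ± 0.318 of the counts were on processed pseudogenes. EEF1A1P5, a copy of the elongation factor gene EEF1A1, held a mean count of 227891 against 59917.5 on EEF1A1, and RPL23AP42 held 27047 against 2966 on RPL23A.

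Keratins of simple and basal epithelium were present together. KRT5, the basal keratin, was at 454, 445, 454 and 438 FPKM (448 ± 7.99) and KRT7, a keratin of simple epithelium, at 307, 314, 339.5 and 329 (322 ± 14.8). These were the leading keratins in every library. KRT19 was at 153 ± 2.94, KRT17 at 104 ± 5.84, KRT8 at 46.9 ± 3.77 and KRT18 at 34.5 ± 3.81 FPKM. KRT8 and KRT18, which overlap on opposite strands over 7.63% and 16.3% of their exons, pair in 1 filament, and their ratio was 1.37 ± 0.115. With the length of the longest transcript the ratio was 2.13 ± 0.179. KRT14, the usual partner of KRT5, was at 0.143, 0.287, 0.308 and 0.233 FPKM, from 7, 13, 13 and 9 reads. KRT5 exceeded it at least 1473-fold in every library, and KRT17, another type I keratin, was the most abundant type I member of the basal list. KRT15 was near zero at 0.0578 ± 0.0188. Of 22 basal and stratified keratins, 4 were expressed (KRT5, KRT17, KRT10 at 8.24 ± 0.429 and KRT16 at 1.35 ± 0.254), 11 were near zero and the list median was 0.103 FPKM, against 5 of 6 expressed and a median of 40.7 FPKM for simple keratins. KRT20, a keratin of the gut, was the sixth and was listed at 0 counts. For 1 of the 4 expressed basal and stratified keratins, over 10% of the reads of the gene and its pseudogenes were on the latter. KRT75 and KRT81, keratins of the hair follicle chosen after their values were seen, were at 8.33 ± 0.745 and 16.1 ± 0.848 FPKM.

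**Figure D2:**
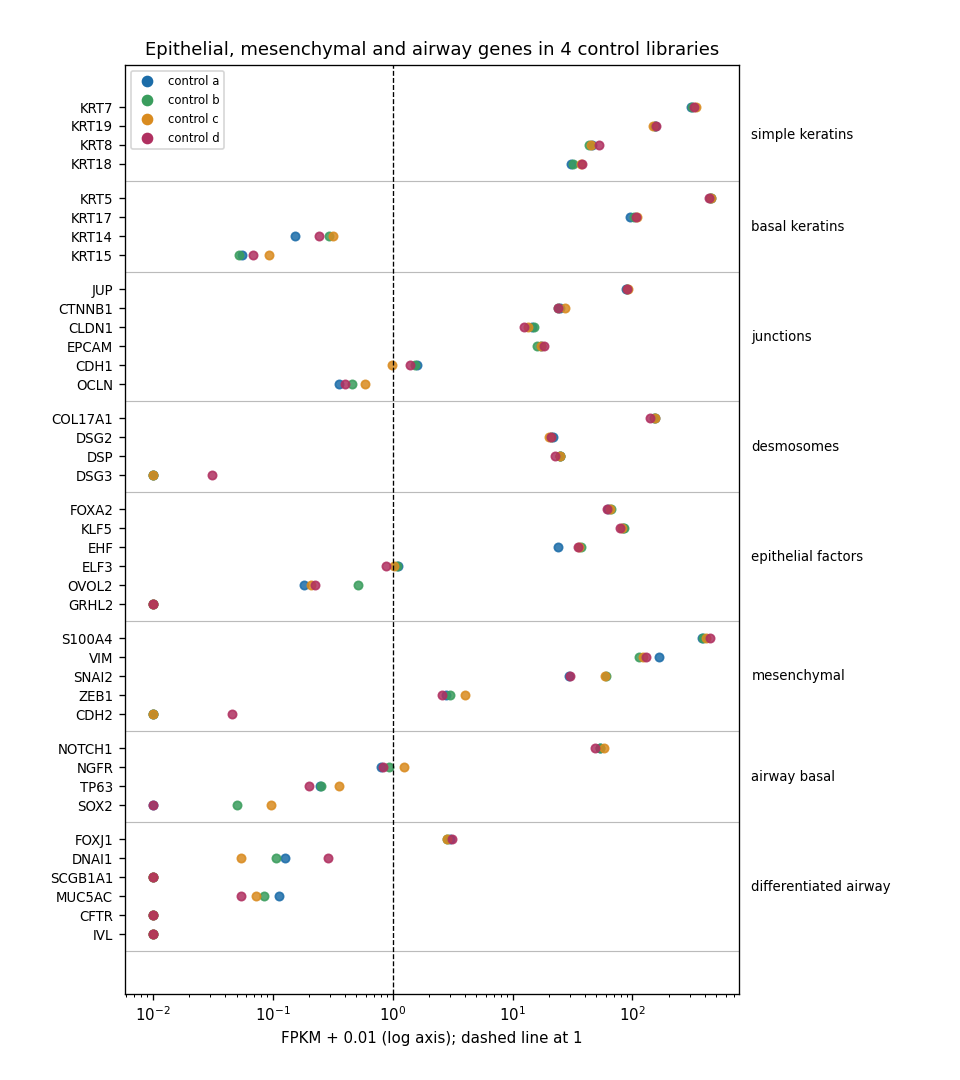
Level of 39 epithelial, mesenchymal and airway genes in control a to d (points), as FPKM + 0.01 on a log axis, so that a gene listed at 0 lies at 0.01, with a dashed line at 1. KRT5, KRT7, COL17A1 and S100A4 lie above 100 in all 4 libraries, KRT14 and TP63 lie under 1, CDH1 lies on both sides of 1, and SNAI2 falls into a high and a low pair of libraries.

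The cell-cell junctions held little of several usual members. CDH1, the cadherin of epithelial adherens junctions, was at 1.6, 1.53, 0.971 and 1.38 FPKM (1.37 ± 0.282), just above the threshold in 3 libraries and under it in control c, and CDH2, its neural and mesenchymal relative, had 0, 0, 0 and 3 reads. Its cytoplasmic partners were higher, with JUP (plakoglobin) at 90.3 ± 1.96, CTNNA1 (alpha-catenin) at 30.6 ± 1.92 and CTNNB1 (beta-catenin) at 25.1 ± 1.74. EPCAM, an epithelial adhesion molecule, was at 17.1, 16.1, 17.2 and 18.3 FPKM and the tight junction protein CLDN1 at 13.9 ± 1.14. OCLN (occludin), another transmembrane protein of tight junctions, was at 0.441 ± 0.0977, and 12.3% of the reads of OCLN and its pseudogenes were on the latter. Of 31 junction genes, 16 were expressed, 5 were near zero and the median was 1.37 FPKM, which is that of CDH1.

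Desmosomes bind cells to each other and hemidesmosomes bind them to the basement membrane. COL17A1, the hemidesmosome collagen of basal cells, was at 154, 151, 153 and 140.3 FPKM (149.5 ± 6.32), lowest in control d. PLEC (plectin), which links hemidesmosomes to keratin, was at 26.3 ± 2.07. DSG2 and DSP, the cadherin and plakin of desmosomes in simple epithelium, were at 21 ± 0.634 and 25, 24.9, 24.8 and 22.5, and control d was the lowest for DSP. The stratified cadherin DSG3 had 0, 0, 0 and 2 reads, and PKP1, a plakophilin of stratified layers, was listed at 0 counts, which allows a level of up to 0.00629 FPKM (3 counts over the 4 libraries together, for counting error only). Here 8 of 17 genes were expressed and 7 were near zero.

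Epithelial transcription factors were present in part. FOXA2, a pioneer factor of foregut epithelium, was at 62.1, 66.8, 64.8 and 61.8 FPKM (63.8 ± 2.38). LINC00261, a long noncoding RNA beside it on chromosome 20, was at 41 ± 5.91. KLF5, a zinc finger factor of proliferating epithelium, was at 82.1 ± 2.75 and EHF, an ETS factor, at 24.1, 37.5, 35.7 and 35.1, with control a below the other 3. ELF3, another ETS factor, was at 1.1, 1.08, 1.01 and 0.878, about the threshold. GRHL2, which drives the epithelial programme and CDH1, was listed at 0 counts in all 4 libraries, which allows up to 0.00644 FPKM. OVOL2, a repressor of the mesenchymal programme, was at 0.274 ± 0.158, and ESRP1, an epithelial splicing factor, at 4.44 ± 0.665. In all, 8 of 20 were expressed.

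Several mesenchymal genes were expressed beside them. S100A4, a calcium-binding protein of motile cells, was at 382, 385, 410.0 and 443 FPKM (405 ± 28.4). VIM, the filament protein vimentin, was at 166, 114, 123 and 131, highest in control a, and CDH11, a mesenchymal cadherin, was at 26 ± 1.97. Each lay above 10 FPKM in every library. SNAI2, a repressor of CDH1, was at 29.6, 59.9, 59 and 30.4 FPKM, so that controls b and c held about the same level and controls a and d a lower one, with no value between. ZEB1, another repressor of CDH1, was at 3.09 ± 0.629, TWIST1 had 1, 0, 0 and 0 reads, and FN1, fibronectin, was at 3.02 ± 0.195. Of 20 mesenchymal genes, 12 were expressed, with a median of 2.13 FPKM.

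The regulators that define nasal basal cells were low. TP63 was at 0.237, 0.243, 0.348 and 0.19 FPKM (0.255 ± 0.0667), from 38, 36, 48 and 24 reads, and SOX2, a factor of airway progenitors, had 0, 2, 4 and 0 reads. TP73, the TP63 relative of ciliated cells, was higher at 3.09, 3.2, 3.27 and 1.67, and control d was the lowest. NGFR, a surface marker of basal cells, was at 0.784, 0.921, 1.24 and 0.825. NOTCH1 was at 53.6 ± 3.62 and BCAM, a laminin receptor, at 26.5 ± 1.13. The bases before the listed start of TP63 (RefSeq, GRCh38.p14, chr3:189631139-189631388, plus strand) are shown, with CG dinucleotides in capitals, as the start region of a gene that defines basal cells. They hold 6 CG dinucleotides.

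TP63: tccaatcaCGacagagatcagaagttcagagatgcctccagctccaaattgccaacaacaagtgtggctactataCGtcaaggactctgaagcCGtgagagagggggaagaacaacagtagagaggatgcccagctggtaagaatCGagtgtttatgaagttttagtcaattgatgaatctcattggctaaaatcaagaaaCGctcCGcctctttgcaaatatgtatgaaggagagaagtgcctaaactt

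TP63 has a further start inside the gene, which is not shown, and the counts do not separate its isoforms. Of 20 airway basal genes 10 were expressed, with a median of 1.16 FPKM, and KRT5 was the highest.

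Few markers of the differentiated airway were expressed. SCGB1A1, the secretoglobin of club cells, was listed at 0 counts, which allows up to 0.0671 FPKM, and MUC5AC, the goblet cell mucin, was at 0.0712 ± 0.0252. CREB3L1, a transcription factor of secretory cells, was the highest of the secretory list at 34.2 ± 1.25, followed by TFF3, a trefoil peptide, at 13.6 ± 2.04, and LCN2 (lipocalin) at 3.41 ± 0.369. SPDEF, the goblet cell factor, was at 3.003 ± 0.377. In this list 7 of 25 were expressed and 12 were near zero. Of 30 ciliated cell genes 9 were expressed and 12 were near zero. FOXJ1, the master factor of motile cilia, was at 2.98, 2.86, 2.82 and 3.11 FPKM, above 1 in every library, while the axonemal dynein DNAI1 was at 0.134 ± 0.10 and the upstream regulator MCIDAS at 0.85 ± 0.256. TUBB4B, a beta-tubulin of cilia that other dividing cells also use, was at 134 ± 5.64 and led the list, followed by CCNO, a cyclin-like gene of multiciliated cells, at 4.56 ± 0.403 and RFX3, a factor of cilium genes, at 3.72 ± 0.219. The number of ciliated genes expressed depended on the scale, with 3 at a threshold of 3 FPKM and 15 on the scale of TPM.

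Markers of the rarer airway types were mostly near zero. FOXI1 (ionocytes), POU2F3 (tuft cells) and the chloride channel CFTR were each listed at 0 counts, with limits of 0.0169, 0.00588 and 0.00418 FPKM. Of 22 genes of these types 5 were expressed, all under 10 FPKM, among them the vesicle protein SYP at 3.98 ± 0.482, the neuropeptide GRP at 3.3 ± 0.746, ASCL2 at 2.42 ± 0.606 and NEUROD1 at 1.85 ± 0.151. Among squamous differentiation genes CNFN, a cornified envelope gene at 2.73 ± 0.295, was the 1 expressed member, and 16 of 23 were near zero, with the envelope protein involucrin (IVL) and SPRR1B listed at 0 counts. In the gland and olfactory list ADCY3, an adenylate cyclase also used outside the nose, was at 14.8 ± 1.16 and PRR4, a gland protein, at 1.97 ± 0.249, and these were the 2 expressed genes of 22. LTF was listed at 0 counts and OMP, the marker of olfactory neurons, had 2, 1, 0 and 0 reads.

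Markers of cells outside the epithelium were checked in the same libraries. None of 20 immune genes was expressed, 15 were near zero, the highest was CD68, a lysosomal protein of macrophages, at 0.663 ± 0.0554, and the leukocyte gene PTPRC had 0, 2, 0 and 0 reads. CD68 shares 81.7% of its exon length on the same strand with AC016876.3, which was at 4.74 FPKM. How reads of overlapping genes were assigned is not given, so the level of CD68 is uncertain. Of 14 endothelial genes 4 were expressed, EGFL7 at 12.1 ± 1.19, the VEGF receptor FLT1 at 3.65 ± 0.195, the cadherin CDH5 at 1.42 ± 0.30 and the ETS factor ERG at 1.26 ± 0.129, while PECAM1 and VWF were at 0.0924 ± 0.0124 and 0.0278 ± 0.029. Of 18 fibroblast and muscle genes 5 were expressed, namely RGS5, a G protein regulator of pericytes, at 242 ± 5.38, the actin ACTA2 at 25.4 ± 1.44, PDGFRB at 3.64 ± 0.138, THY1 at 1.99 ± 0.458 and TAGLN at 1.1 ± 0.169. COL1A1 was at 0.216 ± 0.0371 and DCN had 0, 1, 0 and 0 reads. Of 18 neural and melanocyte genes 2 were expressed. These were the tubulin TUBB3, at 12.5, 6.23, 13.9 and 8.63 FPKM, and the melanocyte factor MITF, at 1.84, 1.79, 1.85 and 1.34, lowest in control d. In these bulk libraries a few cells with a high level and many cells with a low one cannot be told apart.

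A few transcription factors of the embryonic face and pharynx were high and most were not expressed. PITX1, a homeobox factor of the first pharyngeal arch and the hindlimb, was at 168, 159, 185 and 167 FPKM (169.7 ± 10.9). DLX5 and DLX6, neighbouring homeobox genes of the lower jaw, were at 235 ± 5.7 and 34.6 ± 1.23. All of them lay above 25 FPKM in every library. ALX4, a factor of the frontonasal skeleton, was at 64.4 ± 1.67, TBX1, the pharyngeal factor lost in DiGeorge syndrome, at 48.7 ± 1.58, and PAX9, a factor of teeth and pharyngeal pouches, at 47.8 ± 0.618. OTX2, a forebrain and placode factor, was at 0.399 ± 0.0531, and PAX6, which is needed for eye and nasal placode, had 5, 0, 3 and 0 reads. Of 40 such factors 13 were expressed, 8 at 10 FPKM or more, and the median was 0.214 FPKM. NKX2-8 lies between NKX2-1 and PAX9 on chromosome 14 and, chosen after its values were seen, was at 63.5 ± 2.32, whereas NKX2-1, the factor of lung and thyroid, was at 3.93 ± 0.912. HAND1, a factor of heart and placenta chosen in the same way, was at 109.8 ± 1.61.

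HOX expression was nearly limited to 1 cluster. The 9 genes of the HOXC cluster on chromosome 12 summed to 224 ± 4.28 FPKM and 8 of them were expressed. None of 11 HOXA or 9 HOXD genes was expressed, with sums of 1.52 ± 0.262 and 0.924 ± 0.121 FPKM, and the sum of the 10 HOXB genes was 1.49 ± 0.184. The posterior end of HOXC was the highest. HOXC12 was at 76.9, 79.9, 80.3 and 74.4 FPKM, HOXC10 at 70.6 ± 1.11, HOXC13 at 27.3 ± 0.306 and HOXC11 at 26 ± 0.626. HOXC8, HOXC4 and HOXC9 were at 4.35, 5.62 and 8.25 FPKM, and HOXC6, at 4.61, 4.65, 1.91 and 4.89, was lower in control c than in the other 3. HOXC5 was at 0.21 ± 0.0357. It shares 59.9% of its exon length on the same strand with AC012531.2 (0.751 FPKM) and 33.9% with AC012531.3 (1.27 FPKM). How reads of overlapping genes were assigned is not given, so the level of HOXC5 is uncertain. HOTAIR, the noncoding RNA transcribed from within the cluster, was at 31, 20.4, 31.5 and 30.6 FPKM, with control b the lowest. HOXB13 was the 1 HOX gene outside HOXC above the threshold, at 1.41, 1.42, 1.42 and 0.902, and it was under 1 in control d.

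**Figure D3:**
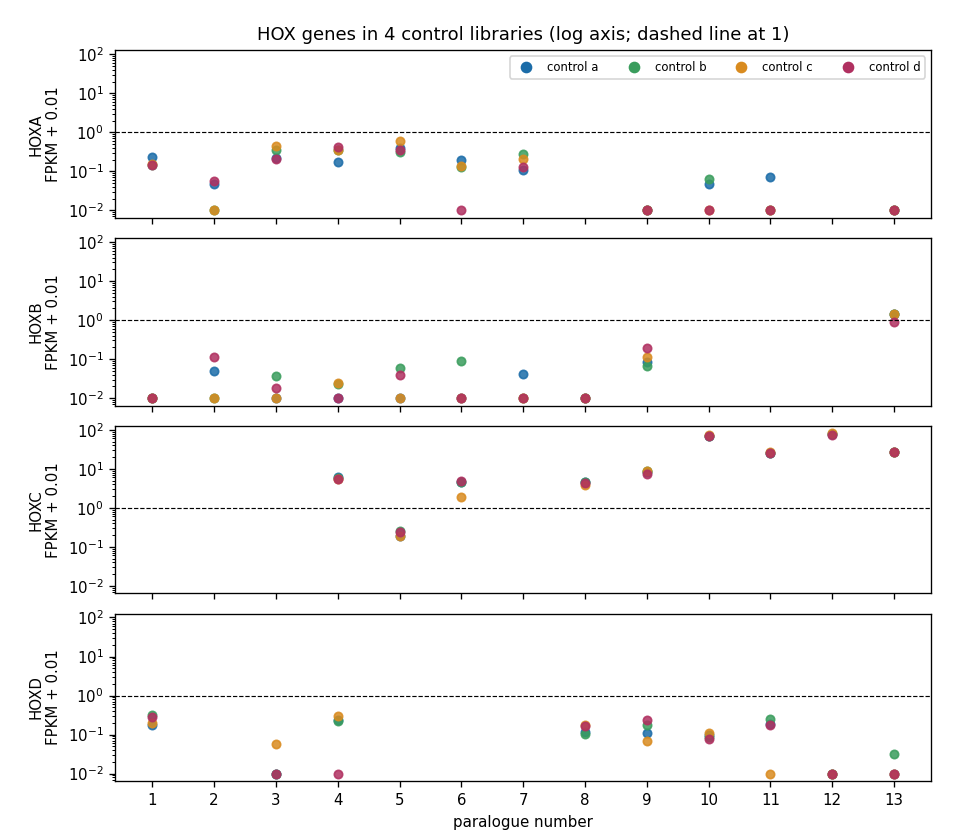
Level of the 39 HOX genes in control a to d (points), by cluster (panels) and paralogue number (horizontal axis), as FPKM + 0.01 on a log axis with a dashed line at 1. HOXC10 to HOXC13 lie above 10 in every library, and the HOXA and HOXD genes lie under 1.

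Oncofetal genes are active in the fetus and again in some tumours, and 2 of the 21 listed, DLK1 and IGF2, lay at 100 FPKM or more. DLK1, an imprinted membrane protein related to Notch ligands, was at 622, 657, 665 and 629 FPKM (643 ± 20.8). RTL1, from the same imprinted region on chromosome 14, was at 28.9 ± 1.53, and the noncoding MEG3 of that region was at 5.67 ± 0.215, from counts of 2963, 2615, 2446 and 2127. On chromosome 11 IGF2, the fetal growth factor, was at 158, 228, 176 and 138 FPKM, highest in control b, and the neighbouring imprinted RNA H19 was listed at 0 counts, which allows up to 0.0135 FPKM. LIN28B, the fetal repressor of let-7 microRNAs, was at 51 ± 1.6, whereas LIN28A had 1, 0, 1 and 0 reads. HMGA1, a chromatin protein of embryonic cells, was at 82.7 ± 2.58, the RNA-binding protein IGF2BP1 at 19.5 ± 1.01, and the pluripotency factor POU5F1 at 0.248 ± 0.133. Of 21 such genes 11 were expressed. Of 28 cancer-testis genes 3 were, and 16 were listed at 0 counts. These 3 were PRAME at 64.7 ± 4.31, NUTM1 at 25.6, 25.8, 27.1 and 27 and TEX15 at 1.86 ± 0.226. NUTM1 is normally active in the testis and is the gene that is fused to a partner in NUT carcinoma. BRD3, a reader of acetylated histones that is among its known partners, was at 15.1 ± 0.838, and counts per gene do not show whether transcripts were joined.

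Of the MYC family MYCN was the abundant member. MYCN, a transcription factor of growth best known from neuroblastoma, was at 135, 133, 141 and 134 FPKM (136 ± 3.63). MYC was at 0.31, 1.69, 6.5 and 0.315 FPKM, from 20, 101, 361 and 16 reads, so that the CPM of control c was 20.99 times that of control a, the lowest. MYCN exceeded MYC at least 21.7-fold in each library. Without control c the mean of MYC fell to 0.772 FPKM. The bases before the RefSeq start of MYCN (GRCh38.p14, chr2:15940300-15940549, plus strand) are shown as those of the dominant MYC gene, with CG dinucleotides in capitals. They hold 11.

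MYCN: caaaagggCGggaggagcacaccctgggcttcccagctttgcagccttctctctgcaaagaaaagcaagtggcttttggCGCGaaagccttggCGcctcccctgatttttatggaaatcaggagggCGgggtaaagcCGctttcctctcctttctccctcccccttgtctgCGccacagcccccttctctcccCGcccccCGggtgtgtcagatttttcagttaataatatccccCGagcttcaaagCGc

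CCND1, the cyclin of the G1 phase, was at 189 ± 3.95 FPKM and its partner CDK6 at 73.9 ± 2.96. CDKN1A, an inhibitor of such kinases, was at 211, 214, 206 and 207, and the inhibitor gene CDKN2A at 3.79 ± 0.377. In this list 25 of 27 were expressed. All 23 proliferation genes were, with a median of 20.9 FPKM. The replication clamp PCNA was at 124, 112, 114 and 139.9, the topoisomerase TOP2A at 86.7 ± 4.55 and the spindle protein TPX2 at 50.4 ± 1.61. MKI67, the usual marker of cycling cells, was at 6.19, 15, 14.5 and 13.1, and control a lay below the other 3, which was not so for PCNA or TOP2A.

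In glycolysis the abundant lactate dehydrogenase gene was LDHB and not LDHA. LDHB, the lactate dehydrogenase subunit that favours pyruvate, was at 448, 472, 469 and 566 FPKM (489 ± 52.5) and LDHA, the subunit that favours lactate, at 45, 42.8, 35.2 and 37.2. The ratio ran from 9.94 to 15.2 over the 4 libraries, with a mean of 12.4 ± 2.36, and was 9.34 ± 1.78 with the length of the longest transcript. GAPDH, at 1013 ± 60.1, led the list, with ENO1 (enolase) at 287 ± 7.16 and PGK1 at 97.9 ± 4.4. PGAM1, at 68.1 ± 1.48, is uncertain, since its copies held 52% of the reads of the family. SLC2A1, the common glucose carrier, was at 19.96 ± 2.92 and the carrier SLC2A3 at 0.315 ± 0.0417. The hexokinases HK2 and HK1 were at 17.7, 18, 19.1 and 16.8 and 17.9, 19, 18.9 and 18.8, and their ranges overlap. With the length of the longest transcript HK2 was below HK1 in every library, at a ratio of 0.640 ± 0.0335. In all, 22 of 31 glycolysis genes were expressed, with a median of 17.9 FPKM.

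Nearly all genes that feed the mitochondrion with carbon were expressed. Of 28 genes of pyruvate entry and the tricarboxylic acid cycle 27 were expressed, with a median of 24.4 FPKM, led by the malate dehydrogenases MDH2 at 99 ± 6.25 and MDH1 at 68.9 ± 7.96 and by the isocitrate dehydrogenase IDH2 at 66 ± 2.63. Fumarase (FH) was at 57.2 ± 0.84. Citrate synthase (CS) was at 30.6 ± 2.11. The genes of the mitochondrial genome were lower in control d. MT-CO1, a subunit of cytochrome oxidase, was at 21060.5, 20442, 18770.0 and 14867 FPKM, and MT-ND6, the 1 protein gene on the light strand, at 551, 544, 495 and 311. The mitochondrial ribosomal RNA MT-RNR2, at 13946, 13446, 12911 and 13602, did not share that order.

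A gene of serine synthesis led the 32 amino acid and one-carbon genes, of which 29 were expressed (median 22.4 FPKM). PSAT1, a transaminase, was at 233, 222, 222 and 236 FPKM and PHGDH, the first enzyme of that path, at 31.6 ± 0.876. The mitochondrial transaminase GOT2 was at 76 ± 2.71, MTHFD2 of the mitochondrial folate path at 74 ± 4.11, ALDH18A1 of proline synthesis at 68.1 ± 1.95, ASNS (asparagine synthetase) at 25.3, 24, 26.3 and 35, and the liver arginase ARG1 was listed at 0 counts. Control d was the highest for ASNS. Among lipid genes 26 of 33 were expressed. SCD, which makes monounsaturated fatty acids, was at 114, 112, 108 and 96.5, lowest in control d, HADHA of mitochondrial beta-oxidation at 78.9 ± 1.69, ACLY at 78.4 ± 2.64 and fatty acid synthase (FASN) at 55.6 ± 1.81. The carnitine palmitoyltransferases CPT1A and CPT1C were at 10.4 ± 0.311 and 12 ± 0.526 FPKM, and their ratio was under 1 in every library (0.864 ± 0.0128). CD36, a fatty acid receptor, was listed at 0 counts.

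Enzymes that handle foreign compounds were few. GSTP1, a glutathione transferase, was at 137, 140.0, 141 and 152 FPKM (142 ± 6.48), ADH5, the formaldehyde dehydrogenase, at 41.5, 36.3, 31.3 and 42.1, and ALDH2, a mitochondrial aldehyde dehydrogenase, at 14.4 ± 0.685. The aldose reductase AKR1B1 was at 17.4 ± 1.09, and EPHX1 and NQO1 were at 12.6 ± 1.49 and 15.1 ± 0.883. Among the P450 genes CYP1A1, the aryl hydrocarbon receptor target, was at 0.125 ± 0.042, CYP1B1 at 1.07 ± 0.15, CYP2S1 at 2.21 ± 0.599 and CYP3A4 had 1, 0, 0 and 0 reads. UGT1A6, a glucuronosyltransferase, was listed at 0 counts. In total 14 of 40 genes were expressed, 16 were near zero and the median was 0.138 FPKM.

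Receptors that could take up signals in the unexposed cells were read next. Among 54 receptor tyrosine kinases 23 were expressed, 10 of them at 10 FPKM or more. EPHA2, an ephrin receptor, was the highest at 47.7, 49.6, 50.1 and 46.8 FPKM, followed by IGF1R, the receptor of IGF1 and IGF2, at 19.4, 48.3, 47.9 and 40.9, with control a well below the other 3. The collagen receptor DDR1 was at 36.1, 24.3, 25.3 and 23.5, with control a above the other 3, and DDR2 at 17.4 ± 1.19. EPHB3, another ephrin receptor, was at 21.8 ± 1.57. In the ERBB family ERBB2, which has no ligand of its own, was at 16.1 ± 0.616, EGFR at 2.71, 4.21, 3.77 and 2.69 and ERBB3 at 0.0832 ± 0.0263. FGFR3 was at 12.3 ± 0.427, FGFR1 at 3.27 ± 0.149, MET at 7.3 ± 0.242 and INSR at 1.05, 1.42, 1.17 and 0.802, so that INSR lay under the threshold in control d. KIT had 4, 0, 2 and 1 reads. EFNB1, a ligand of EPHB receptors chosen after its values were seen, was at 230.4 ± 4.81. Of 35 growth factor ligands 11 were expressed, led by IGF2. The stress-induced GDF15 was at 54.9 ± 1.62, the heparin-binding MDK at 89 ± 8.93, the ERBB3 and ERBB4 ligand NRG1 at 18.9 ± 0.799, and EGF had 0, 1, 0 and 2 reads.

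**Figure D4:**
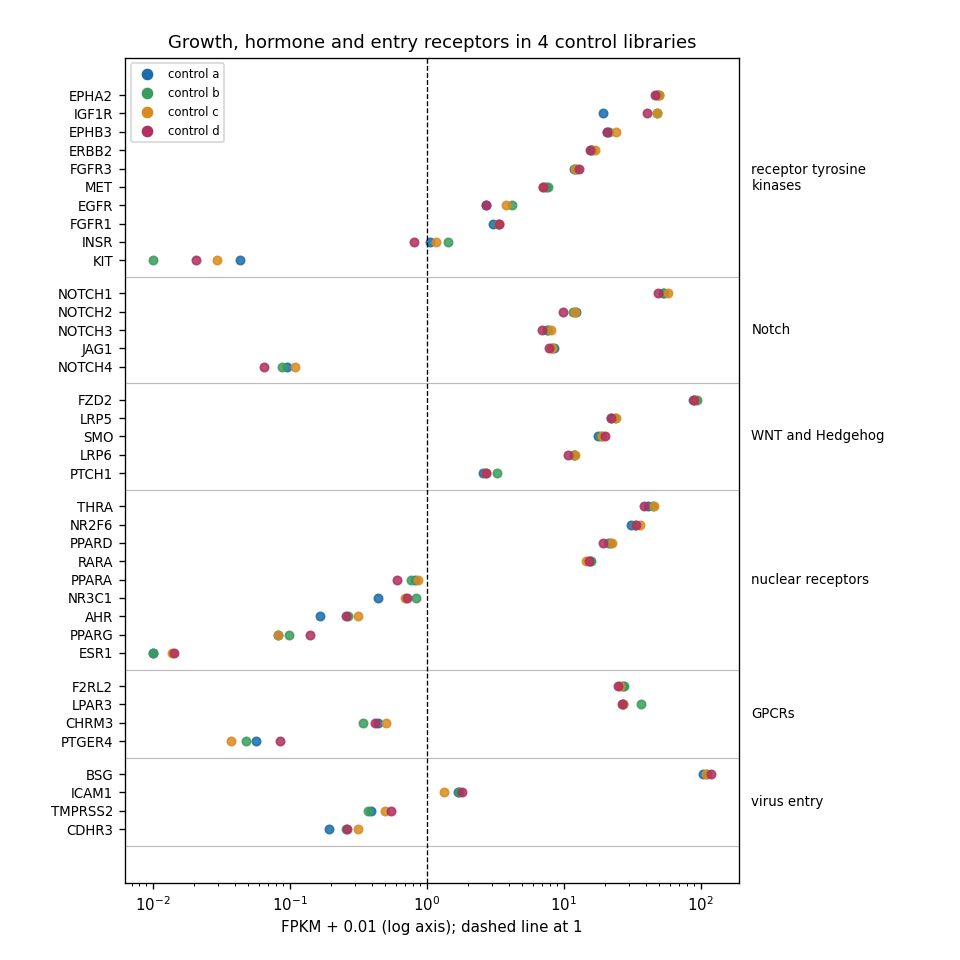
Level of 37 genes, namely receptors, entry factors and the Notch ligand JAG1, in control a to d (points). Values are FPKM + 0.01 on a log axis with a dashed line at 1. IGF1R is lower in control a than in the other 3, FZD2 is the highest after BSG, and KIT, ESR1 and PTGER4 lie under 0.1 in every library.

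Notch genes were expressed in 16 of 24 cases (median 5.003 FPKM). NOTCH1 was the highest receptor at 53.2, 53.9, 58 and 49.2 FPKM and exceeded NOTCH2 4.68 ± 0.274-fold. NOTCH3 was at 7.53 ± 0.478 and NOTCH4 at 0.0794 ± 0.019. The ligands JAG1 and JAG2 were at 8.18 ± 0.275 and 14.4 ± 1.53, and the targets HES1 and NRARP at 47.4 ± 2.17 and 32.3 ± 1.64. In the WNT and Hedgehog list 20 of 41 were expressed. FZD2, a WNT receptor, was at 88.1, 93.4, 89.99 and 88.8 FPKM (90.1 ± 2.33), and its co-receptors LRP5 and LRP6 were at 23 ± 1.08 and 11.7 ± 0.668. The targets were low, with AXIN2 at 1.26 ± 0.142 and LEF1 at 0.0969 ± 0.034. SMO, the signal transducer of Hedgehog, was at 18.9 ± 0.946, the receptor PTCH1 at 2.79 ± 0.297 and the target GLI1 at 0.356 ± 0.0506, while SHH had 0, 1, 1 and 0 reads.

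Of 37 receptors, ligands and targets of the TGF-beta and BMP pathways 25 were expressed. BMPR2 was at 9.83 ± 0.55 and TGFBR2 at 5.29 ± 0.342. ID3, a BMP target, was at 68.9 ± 4.04, FST (follistatin), which binds activin, at 75.1, 69.8, 70.2 and 60.6, TGFB2 at 43.5 ± 2.67 and BMP2 at 17.3 ± 0.939. Control d was the lowest for FST.

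Cytokine and innate receptors numbered 21 of 48 expressed, 5 of them at 10 FPKM or more. The highest 3 were the death receptor TNFRSF10B at 73.8 ± 1.57, IL13RA1, a subunit for interleukins 4 and 13, at 20.1 ± 0.80, and IFNGR2, of interferon gamma, at 15.2, 15, 14.7 and 19.5, with control d above the others. IFNAR1 of type I interferon was at 9.92 ± 0.485. IL4R, the partner of IL13RA1, was at 0.436 ± 0.149, the double-stranded RNA sensor TLR3 at 0.476 ± 0.0648, and of the alarmins of airway epithelium IL33 had 1, 0, 0 and 0 reads and TSLP was listed at 0 counts. Interferon-stimulated genes were uneven among themselves, with 20 of 36 expressed. IFITM3 and IFITM1, which block virus entry, were the highest. IFITM3 was at 58.7, 50.3, 65.3 and 46.3 FPKM and IFITM1 at 68.8, 50.8, 68.3 and 66.6, lowest in control b. IFIT1, an antiviral RNA-binding protein, was at 44.7, 43.2, 41.4 and 50.9. IFI44L and OAS1 were at 0.00258 ± 0.00302 and 0.104 ± 0.022, and IFNB1 was listed at 0 counts. In antigen presentation 14 of 22 were expressed. HLA-E, which is read by natural killer cells, was at 42.9 ± 1.57, above HLA-B at 34.6 ± 0.615 and HLA-C at 30.4 ± 0.75 in each library, but with the length of the longest transcript HLA-E, at 49.1, was below HLA-B, at 68.2. Reads can be shared among these near-identical genes. B2M, their light chain, was at 16.5, 30.1, 29.6 and 17.8 FPKM, with controls b and c above controls a and d. CIITA, the regulator of class II genes, was at 0.0311 ± 0.00915 and HLA-DRA at 1.27, 0.746, 1.01 and 1.06.

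Of 50 nuclear receptors 19 were expressed, with a median of 0.284 FPKM. THRA, the thyroid hormone receptor alpha gene, was at 41.6, 44.6, 45.6 and 38.7 FPKM, the orphan receptor NR2F6 at 33.6 ± 2.06 and NR2F2 at 19.4 ± 1.22. The fatty acid sensor PPARD was at 21.8, 21, 22.5 and 19.3, whereas PPARA was at 0.816, 0.753, 0.855 and 0.594 and PPARG at 0.0905 ± 0.0276. At the threshold of 1 FPKM PPARD was the 1 expressed member of its family, and at 0.5 FPKM PPARA was expressed too. AHR, the sensor of dioxins, was at 0.242 ± 0.0633 and the glucocorticoid receptor NR3C1 at 0.431, 0.822, 0.69 and 0.714, both under 1 in every library. ESR1 had 0, 0, 1 and 1 reads.

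In the list of G protein-coupled receptors of the airway 17 of 52 were expressed. LPAR3, of lysophosphatidic acid, was at 27.3, 36.7, 27.1 and 26.6 with control b the highest, and F2RL2, a thrombin receptor, at 26.3 ± 1.14. CHRM3, the muscarinic receptor of airway muscle and glands, was at 0.418 ± 0.0668 and the prostaglandin receptor PTGER4 at 0.0467 ± 0.0202. Genes that respiratory viruses use for entry were expressed in 12 of 20 cases. NCL (nucleolin), used by respiratory syncytial virus, was at 139 ± 0.798, BSG (basigin) at 111 ± 6.69 and the proteases CTSB and CTSL at 17.3 ± 0.744 and 13.7 ± 0.996. The rhinovirus receptor ICAM1 was at 1.68, 1.71, 1.33 and 1.8. TMPRSS2, the protease of coronavirus and influenza entry, was at 0.442 ± 0.0854 and CDHR3, of rhinovirus C, at 0.247 ± 0.0496.

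Ion and water transport held 20 of 33 genes expressed. AQP1, a water channel of endothelium and other tissues, was at 114, 119, 111 and 115 FPKM (115 ± 3.51), and AQP5, the water channel of airway glands, was at 0.333 ± 0.0701. The bicarbonate carrier SLC4A4 was at 48.6 ± 2.5. Of the 3 subunits of the epithelial sodium channel, SCNN1A was at 14.8 ± 0.762, SCNN1B had 1, 0, 0 and 0 reads and SCNN1G was at 0.072 ± 0.0319. The chloride channel ANO1 was at 0.0333 ± 0.018, and with CFTR at 0 counts both main apical chloride channels of the airway were near zero. ATP12A, a proton pump of the airway surface, was at 8.74 ± 0.328.

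Extracellular matrix genes were expressed in 24 of 38 cases (median 2.22 FPKM). TIMP3, an inhibitor of metalloproteinases, was at 169, 165, 163 and 145 FPKM and the membrane metalloproteinase MMP14 at 83.4, 96.6, 95.5 and 74.8, and control d was the lowest for each. COL6A1 was at 67.4 ± 4.11, the proteoglycan HSPG2 (perlecan) at 14.3 ± 1.47 and the laminin chain LAMC1 at 10.5 ± 0.659. COL4A1 and COL4A2, the main collagen chains of basement membrane, were at 1.25 ± 0.183 and 2.14 ± 0.108. With the length of the longest transcript they were at 2.78 and 6.36. Of their relatives, COL4A5 was at 4.91 ± 0.418, COL4A6 at 0.478 ± 0.0288, and COL4A3 was listed at 0 counts.

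Most of these levels were steady and a few were not. Of 536 list genes with a mean count of at least 100, 18 (3.36%) differed at least 2-fold in CPM between the highest and the lowest control, against 390 of 11454 genes of any kind, for which the median ratio was 1.17. MYC had the largest ratio of the 18. PEG10, an imprinted gene derived from a retroelement, followed with 7.44, 43.2, 7.99 and 26.5 FPKM and a ratio of 5.802, high in controls b and d. IGF1R (2.49), MKI67 (2.43) and RBPJ (2.55), the DNA-binding partner of Notch at 3.75, 8.82, 9.56 and 8.85 FPKM, were each lowest in control a. MAX, the obligate partner of MYC and MYCN, had a ratio of 2.199 at 6.11, 12, 5.47 and 11.5 FPKM. SNAI2, at 2.02, closed the group. The lowest value was in control a, b, c or d depending on the gene, and most often in control a. Over the 11454 genes control d was the highest for 4013 and the lowest for 3069, or 61.8% in all. Among 4 libraries any of them is the highest or the lowest for many genes. The shares of controls a, b and c were not computed, so this share was not compared with theirs. In pairs of libraries, chi-square per degree of freedom was 16.6 to 21.4 with control d and 10.7 to 12.8 without it. The reason for this was not tested.

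**Figure D5:**
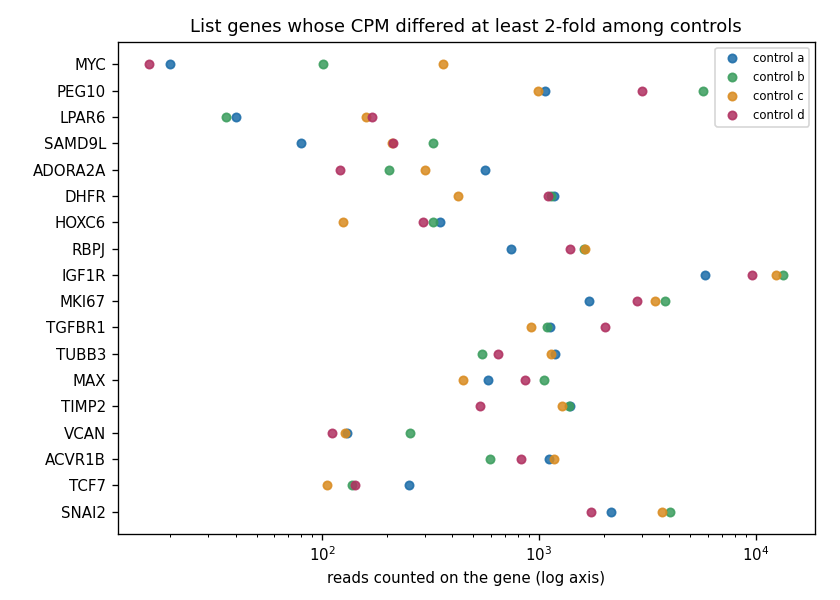
Reads counted in control a to d (points, log axis) for the 18 list genes with a mean count of at least 100 whose CPM differed at least 2-fold among the controls, ordered by that ratio. MYC runs from 16 reads in control d to 361 in control c, and SNAI2 and IGF1R rest on at least 1747 reads in every library.

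Outside the lists, the genes with the largest ratios were mostly read-through or overlapping annotations. ATP6V1G2-DDX39B, which shares its exons with DDX39B, was at 11.8, 0.191, 12 and 0.0498 FPKM, and SENP3-EIF4A1, which joins 2 neighbouring genes, at 0.396, 6.56, 18.7 and 13.6. PTGES3L-AARSD1, also a read-through gene, was at 5.37, 0.148, 0.0907 and 6.22, and AC087190.3, whose exons lie wholly within those of C16orf72, at 0.134, 6.49, 0.149 and 0.305. Each was high in some libraries and nearly absent in others. How reads of overlapping genes were assigned is not given in the sources used here. EIF2S3B, a copy of a translation initiation gene, was at 0.691, 8.14, 1.45 and 8.14, and JRK at 0.389, 0.658, 0.255 and 2.79 with control d the highest.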

How the data were processed

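RNA-seq of RPMI2650 was read from 1 deposited table of 50868 Ensembl genes. Per the submitters' processing notes, reads were aligned with HISAT2 2.0.4 to GRCh38 (hg38). The sources used here do not name a counting program, an annotation release or a strand setting. Counts are the authors' whole-number read counts per gene, as deposited and with no normalization. The 4 control columns of counts were taken by their name and the 8 of exposed libraries were left aside. The 12 FPKM columns of the table were not used here. A column's prefix shows its group, and its letter is not tied to a numbered sample. Only 1 measure per library, the counts, was kept. The planned levels were the authors' FPKM. In their place FPKM were computed from the counts, the column totals and the length of each gene's non-overlapping exons in GENCODE 29. GENCODE 29 gave a length to 50111 genes, and 94.9% of these had equal coordinates in it. The other 757 genes, with 0.0425% of the counts, have no level.

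Means, SD and medians were computed in Python 3.11.15 (numpy 2.4.6, pandas 2.3.3, scipy 1.17.1, matplotlib 3.10.9), and CPM uses the total count. The coefficient of variation came from edgeR 4.0.16 in R 4.3.3 on 15143 genes kept by filterByExpr, with TMM factors and an intercept only, and was tested on simulated data. No contrast was tested. Reads on copies are those on pseudogenes of any kind whose name or description gives the gene. Exon overlaps are from GENCODE 29. Sequences are from RefSeq (GRCh38.p14), where 11091 of 19636 protein-coding symbols (56.5%) had 1 listed start. A gene at 0 counts is given the limit of 3 counts over the 4 libraries together. Without molecular identifiers reads are not independent molecules, so such a limit speaks of counting error alone.

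Named genes are the fixed members of each list, the 3 highest of each list, the 20 most abundant nuclear protein-coding and 10 other nuclear genes with transcripts of at least 500 nt, and the 10 with the largest CPM ratio among controls at a mean count of at least 100, besides their neighbours in rank or family. Genes outside it are marked as chosen after their values were seen, and some genes that the rule names are not reported here. The members, lists and rules were chosen with earlier results of these data known. Other thresholds, TPM, removal of mitochondrial genes, other scaling and filtering, and leaving out each library were tried, and the length of the longest transcript was added after seeing the data.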

Additional observations from a re-analysis of the deposited data

Results flagged for a closer look

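In 20 of 227 measures (6 of libraries, 41 list sums and 180 named genes) 1 control lay so far from the other 3 that its gap to the nearest, divided by the range of all 4, was above Dixon's 95% critical value for 4 samples. Chance gives about 1 in 20, and measures of the same library are not independent. The named genes also include those picked for a large CPM ratio among these same controls, such as AC087190.3 and JRK, which were flagged. For such genes the outcome partly follows from the choice, so the number flagged cannot be set against that rate. The library was control d in 13 of the 20.

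Control d was the highest for the summed level of proliferation genes (728 FPKM, against 684 to 689) and of amino acid and one-carbon genes (1085, against 1019 to 1025). Control a was the lowest for the growth control list (873, against 882.7 to 883.2), and control c the highest for the craniofacial factors (679.7, against 642 to 648). Among single genes control d was the lowest for DSP of desmosomes (22.5 FPKM, against 24.8 to 25.03), the WNT co-receptor LRP6 (10.7, against 11.95 to 12.1), fibronectin FN1 (2.73, against 3.099 to 3.14) and the melanocyte factor MITF (1.34, against 1.79 to 1.85). It was the highest for the interferon receptor IFNGR2 (19.5, against 14.7 to 15.2), for JRK (2.79, against 0.255 to 0.658) and for 5 genes of the translation apparatus or their copies. These were RPS12 (1084, against 624 to 689), EEF1A1P5 (9310.3, against 8222 to 8383), RPL7P9 (1930.1, against 1442 to 1487), RPS3AP6 (1415, against 969 to 1043) and RPL7P1 (1214, against 1002 to 1027).

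Control b was the lowest for IFITM1 (50.8 FPKM, against 66.6 to 68.8) and the highest for the receptor LPAR3 (36.7, against 26.6 to 27.3) and for AC087190.3 (6.49, against 0.134 to 0.305). Control a was the lowest for the laminin receptor BCAM (24.9, against 26.9 to 27.3) and the highest for the collagen receptor DDR1 (36.1, against 23.5 to 25.3). Control d also had the smallest mitochondrial share and the lowest total count, and the part of these in its levels was not tested.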

How the results depend on the processing

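The number of expressed genes, 12618, was 9420.0 at a threshold of 3 FPKM, 14427 at 0.5 FPKM, 15321 as TPM, 13489 without mitochondrial genes, 13112 with the length of the longest transcript and 12034 when 1 FPKM was asked of every library. Leaving out 1 library gave 12597 to 12634 genes, 539 to 540.0 expressed list genes, a mitochondrial share of 10.6% to 11.5%, a share of the 100 largest genes of 23.6% to 24.04% and a coefficient of variation of 0.118 to 0.127. The mitochondrial share (10.9% of counts) was 9.496% with protein-coding genes alone in the count and 29.6% of the summed FPKM, and the share of the 100 largest genes (23.7%) was 15.6% over nuclear genes. The number of expressed members moved by over 1.5 times in 6 of 41 lists as TPM, 11 at 3 FPKM, 3 at 0.5 FPKM, 1 without mitochondrial genes, and none with the length of the longest transcript or without 1 library. Of 180 named genes at 1 FPKM or more, 5 moved by over 1.5 times without 1 library: MYC fell to 0.772 FPKM and AL136295.1 to 0.661 without control c, PTGES3L-AARSD1 to 1.87 and JRK to 0.434 without control d, and AC087190.3 to 0.196 without control b. With the length of the longest transcript 47 of the 180 moved by over 1.5 times, so that levels of different genes are known less well than levels of 1 gene across libraries. No paired analysis was possible because no result comes from a test between groups and the columns carry no label numbers.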

Other observations

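Several abundant genes lay outside the lists and were picked after their values were seen. PRSS56, a secreted serine protease, was at 323, 331, 347 and 378 FPKM and ECEL1, an endopeptidase of developing nerves, at 272, 281, 282 and 303. Both lie on chromosome 2, at chr2:232520463-232525716 and chr2:232479827-232487828, and both were highest in control d. SPINK5, the protease inhibitor of stratified epithelium that is lost in Netherton syndrome, was at 262, 245, 249.7 and 239 FPKM, while 16 of the 23 squamous differentiation genes were near zero. MGP, a calcification inhibitor, was at 281, 268, 292 and 334, the IGF-binding proteins IGFBP4 and IGFBP5 at 218 ± 8.18 and 121 ± 5.74, the macrophage growth factor CSF1 at 90.5 ± 2.81, the vasoconstrictor EDN1 at 79 ± 1.83 and the membrane mucin MUC21 at 64.6 ± 6.6.

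Receptors picked in the same way were higher than any in the list of airway G protein-coupled receptors. P2RY12, the ADP receptor of platelets and microglia, was at 125, 128, 121 and 133 FPKM. It lies on chromosome 3, at chr3:151337380-151384812, within the span of MED12L on the other strand, which was at 16 ± 0.128. APLNR, the apelin receptor, and P2RX3, an ATP-gated channel of sensory nerves, were at 145 ± 4.74 and 71.3 ± 2.12 and lie on chromosome 11, at chr11:57233577-57237314 and chr11:57338374-57370600. SLC30A8, the zinc carrier of pancreatic beta cells, was at 57.5, 173, 169 and 165 FPKM, with control a below the other 3, and the chemokine CXCL14 was at 154, 67.6, 70.1 and 70.7, with control a above them.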
